A study of Mus musculus with 9 samples.

Results

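Genes of radial glia and of the astroglial lineage were followed in sorted embryonic mouse forebrain cells: 39 genes, chosen by symbol as transcription factors, FGF receptors and structural, transport and metabolic genes of these cells. They were found among 53379 gene identifiers by matching each identifier to its mouse symbol, and all 39 passed the filter on low counts, as did 19572 genes in all. RNA was sequenced from 9 libraries, 3 in each of 3 groups. The GemC1 libraries came from forebrains electroporated with pCAGGS-GemC1, the Mcidas libraries from forebrains given the Mcidas plasmid, and the GFP libraries from forebrains given H2B-GFP alone. GemC1 and Mcidas are nuclear proteins of the Geminin family known to start the multiciliated cell programme, and H2B-GFP is a fluorescent histone that marks electroporated nuclei. Mice of all groups were of the C57Bl6DBa2 strain. The plasmids were introduced in utero at E14.5, and the forebrains were dissociated 2 days later, at E16.5 (embryonic day), when GFP+ cells were sorted by flow cytometry. The labels call the sorted cells neural progenitors. The CAG promoter of pCAGGS is active in most cell types, so it does not confine expression to one of them. The labels do not say whether the replicates came from separate litters or embryos, and the p-values cover the spread among these libraries and nothing wider.

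Radial glia are the stem cells that line the embryonic ventricles; they divide to give neurons, guide migrating neurons along their processes, and later turn into astrocytes, ependymal cells and adult neural stem cells. They already transcribe many genes usually named after astrocytes, such as those for the glutamate transporter GLAST, the brain fatty acid binding protein and vimentin. In the mouse forebrain, nuclear factor I proteins and FGF and Notch signalling are known to maintain or mature this lineage, whereas GFAP and S100B appear with astrocyte maturation.

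Levels are given in CPM, the counts of a gene per 1000000 counts of the library, with library sizes adjusted by TMM. Differences are log2 fold changes with their standard error from one edgeR quasi-likelihood fit over the 9 libraries. A gene is called where the p-value adjusted over all 19572 genes (Benjamini-Hochberg) is under 0.05. The GemC1 and Mcidas groups were each set against the same 3 GFP libraries, so those comparisons are not independent of each other. The sorted populations are bulk samples, so more cells of a type and more RNA per cell cannot be told apart in any result.

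The levels of the 39 genes spread widely, and radial glial and astrocyte genes were mixed in their order. Per kb of exon, Fabp7, the brain fatty acid binding protein, was the highest of the 39 genes in each group, at 463 CPM per kb in GemC1 cells, 319 in Mcidas cells and 322 in GFP cells. Dbi, an acyl-CoA binding protein, stood second, at 191 in GemC1 cells, 140.4 in Mcidas cells and 132 in GFP cells, and the nuclear factor I gene Nfib was next, at 105 in GemC1 cells, 109 in Mcidas cells and 123 in GFP cells. At the other end, Gfap, the intermediate filament of mature astrocytes, was lowest in every group, at 0.143 CPM per kb in GemC1 cells, 0.119 in Mcidas cells and 0.171 in GFP cells. S100b, a calcium-binding protein of maturing astrocytes, was next to lowest and the water channel gene Aqp4 followed it. Aldoc, another astrocyte gene, was at 35.4 CPM per kb in GemC1 cells, 21.7 in Mcidas cells and 24.4 in GFP cells, near the stem cell gene Sox2 at 31.2 in GemC1 cells, 25.9 in Mcidas cells and 22.8 in GFP cells. Lengths are unions of annotated exons, so genes with long alternative exons, such as Pax6 with 11694 bp, are understated. Transcripts of neurons were also abundant. The neuronal tubulin gene Tubb3 was at 868 to 1049.5 CPM in GemC1 cells, 875 to 942 in Mcidas cells and 936 to 1101 in GFP cells.

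**Figure D1:**
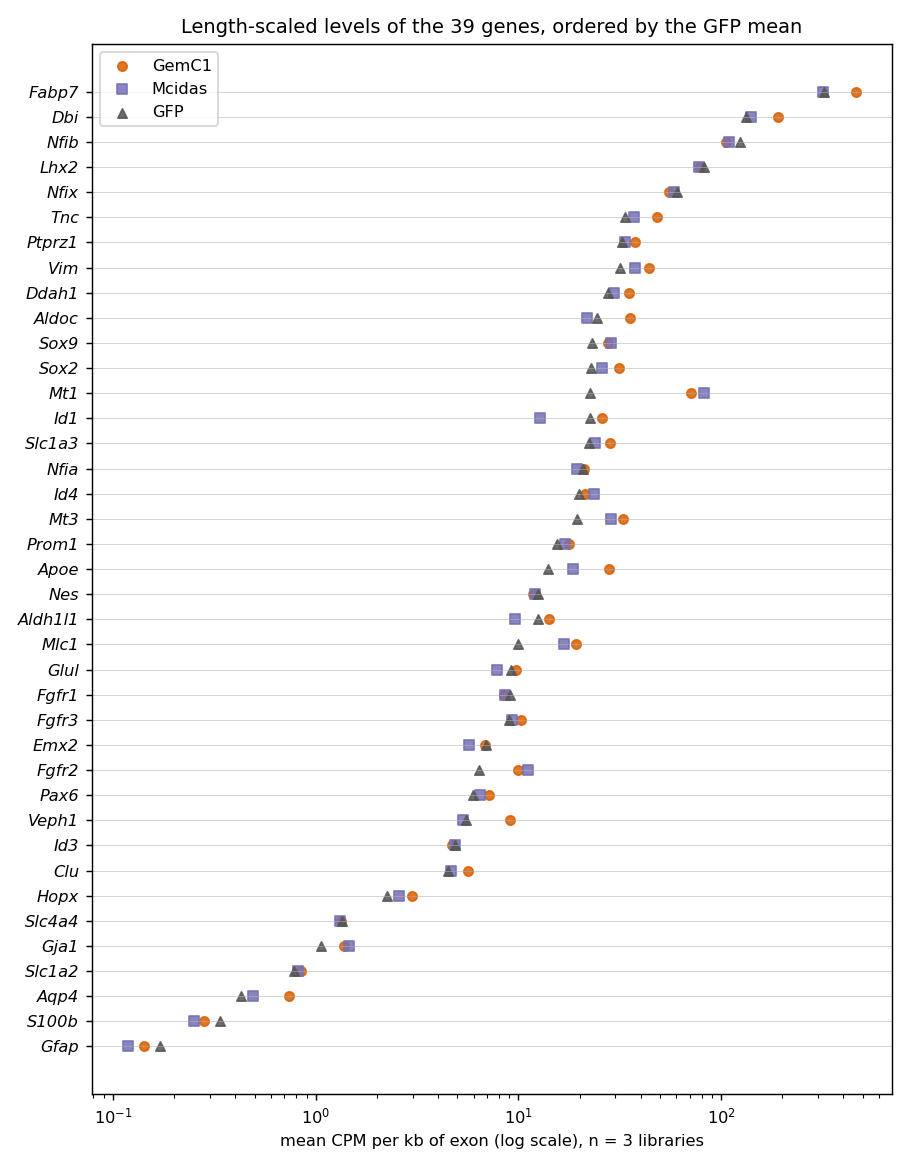
Mean CPM per kb of exon (log axis) of each of the 39 genes in GemC1, Mcidas and GFP cells, ordered by the GFP mean, n = 3 libraries a group. Fabp7, Dbi and Nfib lead and Aqp4, S100b and Gfap close the order, and Mt1 is the gene whose points lie farthest apart.

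In GemC1 cells, 7 of the 39 genes were higher than in GFP cells, namely Mt1, Fgfr2, Apoe, Mlc1, Veph1, Dbi and Aldoc, and 0 were lower. That is 17.9% of the genes, where 3.86% of all tested genes were called higher and 1.32% lower. The median log2 fold change of the 39 was 0.26, with 29 above 0 and 10 below, against a median of -0.00 over all tested genes. In 14 genes (35.9%) each GemC1 library lay above each GFP library, and in 1 gene, Nfib, each lay below. Over all tested genes those shares were 13.2% and 11.7%. At an unadjusted p under 0.05, 14 were higher and 1 was lower, but the share of all tested genes under this cut was not counted. Leaving out GFP replicate 3 cut the count to 2 (Fgfr2 and Mt1), with the log2 fold changes of the other 5 between 0.44 (Dbi) and 0.82 (Apoe). Leaving out GemC1 replicate 2 cut it to 3 (Fgfr2, Mt1 and Apoe), with the other 4 between 0.42 (Aldoc) and 0.95 (Mlc1), while DESeq2 called 11.

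In Mcidas cells, only Fgfr2 and Mt1 of the 39 were higher than in GFP cells, and 0 were lower. This share of 5.13% was close to the background, with 4.03% of all tested genes called higher and 0.327% lower. The median log2 fold change was 0.06, with 22 genes above 0 and 17 below, against -0.03 over all genes. Each Mcidas library lay above each GFP library for 3 genes (7.69%), Sox9, Fgfr2 and Mt1, and below for 2 genes, Emx2 and Glul, where the shares over all genes were 10.7% and 8.87%. At an unadjusted p under 0.05, 5 were higher and 2 lower, again without a count over all tested genes. Without Mcidas replicate 1 the count of higher genes was 4, with Mlc1 and Mt3 added, and with no low-count filter it was 1, Fgfr2.

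Set directly against Mcidas cells, GemC1 cells had 0 called genes among the 39 in either direction by the edgeR fit, where 0.0153% of all tested genes were called higher and 0.0358% lower. At an unadjusted p under 0.05, 8 of the 39 were higher in GemC1 cells and 0 were lower. The share of all tested genes under this cut was not counted here either, so these counts have no background. The median log2 fold change was 0.20, against -0.00 over all genes. In 9 genes (23.1%), namely Id1, Slc1a3, Veph1, Aqp4, Fabp7, Dbi, Apoe, Aldoc and Aldh1l1, each GemC1 library lay above each Mcidas library, and in 0 did each lie below. The shares over all genes were 9.07% and 7.64%. DESeq2 called 5 of them higher in GemC1 cells, Veph1, Fabp7, Dbi, Aldoc and Aldh1l1, and the edgeR fit with no low-count filter called 3 (Veph1, Dbi and Aldoc). A call in the GemC1 group and not in the Mcidas group was therefore, in the main fit, not shown to be a difference between the proteins. The names of the deposited Mcidas files bear a different year code from the rest, and if the code marks a batch, it cannot be told apart from the plasmid.

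**Figure D2:**
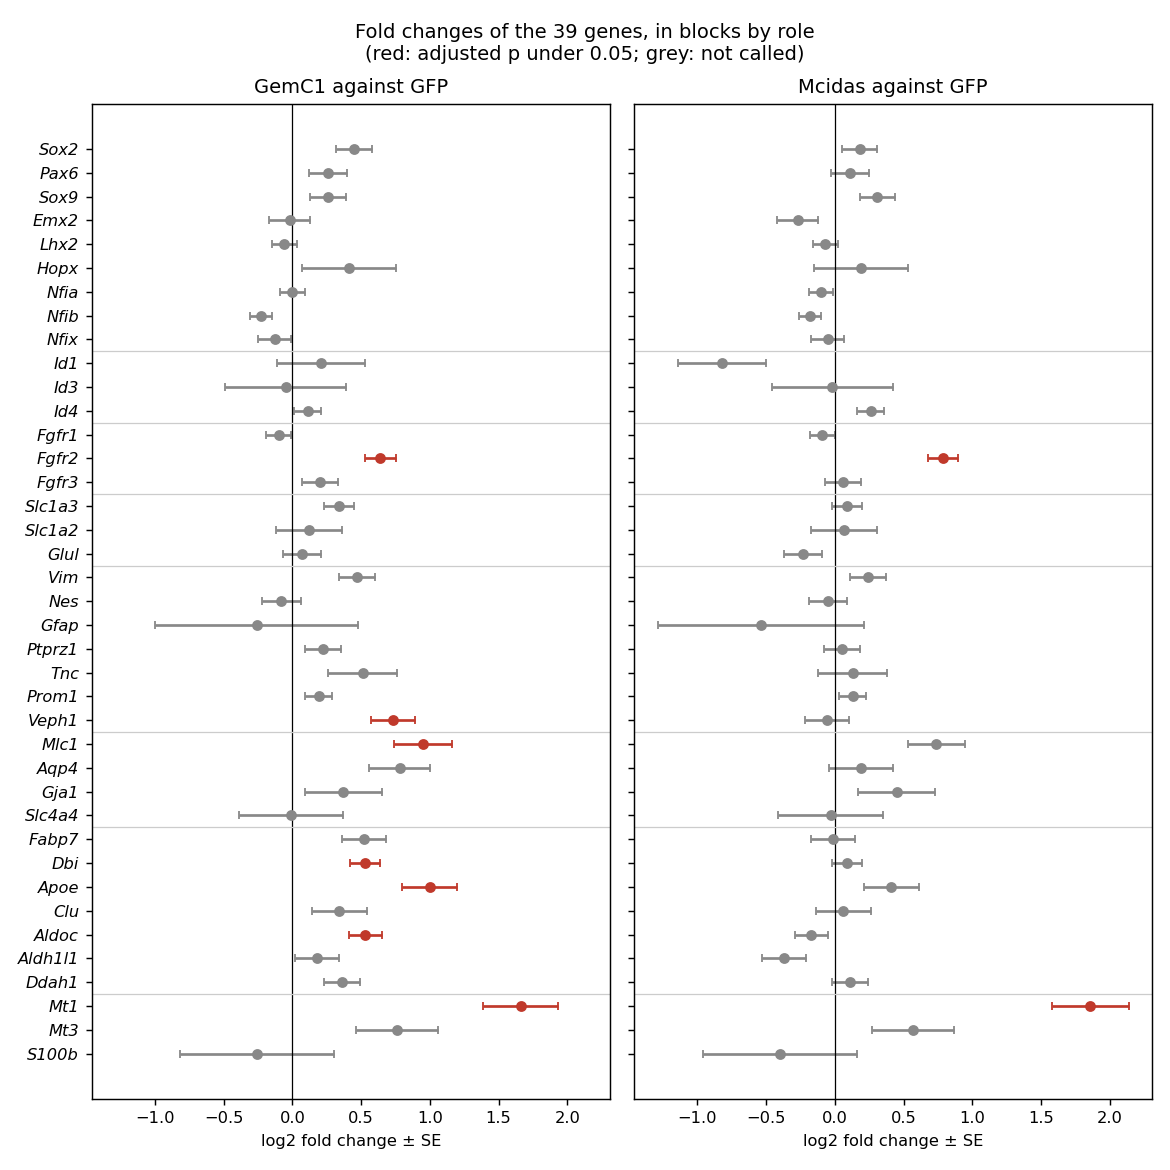
Log2 fold change with its standard error for each of the 39 genes, in blocks by role, with called genes in red. The panels show GemC1 against GFP and Mcidas against GFP. Mt1 and Fgfr2 are red in both comparisons, and Apoe, Mlc1, Veph1, Dbi and Aldoc in GemC1 against GFP only.

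Within the groups, the libraries were not equally placed. The median log2 level of the 39 genes over the GFP mean was 0.26, 0.17 and 0.32 in GemC1 libraries, -0.10, 0.16 and 0.17 in Mcidas libraries, and 0.11, 0.10 and -0.20 in GFP libraries. Mcidas replicate 1 held the lowest value of its group for 28 of the 39 genes, and GFP replicate 3 for 24. With both left out, a choice made after seeing the data, 5 genes were higher in GemC1 cells than in GFP cells. In Mcidas cells 4 were higher, and none was lower in either group. The share of all tested genes called in this fit is not given, so these counts have no background. The 39 genes together took 0.635, 0.649 and 0.641% of all counts in GemC1 libraries, 0.53, 0.618 and 0.601% in Mcidas libraries, and 0.573, 0.585 and 0.536% in GFP libraries.

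The largest change was in a metallothionein. Metallothioneins are small cysteine-rich proteins that bind zinc and copper, and their genes are known to be switched on by metals, glucocorticoids and oxidative stress. Mt1 (ENSMUSG00000031765, plus strand, chr8:94179082-94180327 in GRCm38) had 86.8, 84.2 and 94.3 CPM in GemC1 libraries, 58.8, 107 and 141 CPM in Mcidas libraries, and 31.5, 32.7 and 19.7 CPM in GFP libraries. The lowest library with either protein was above the highest GFP library, and Mcidas replicate 1 was the lowest of the 6. The log2 fold change was 1.66 ± 0.27 (SE) in GemC1 cells, a 3.16-fold difference (adjusted p = 0.00478), and 1.86 ± 0.28 in Mcidas cells, a 3.64-fold difference (adjusted p = 0.00171). GemC1 and Mcidas cells differed by -0.21 ± 0.26 (adjusted p = 0.789). With no low-count filter the call was missed in both (adjusted p = 0.0613 for GemC1 and 0.0518 for Mcidas).

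Mt1 lies in a cluster with its relatives Mt2 and Mt3, all on the plus strand. Mt2 ends 5513 bp before Mt1 starts, and Mt3 ends 18517 bp before Mt2 starts. Mt2 (ENSMUSG00000031762, chr8:94172664-94173568), which is not one of the 39, had 38.5, 32.4 and 41.7 CPM in GemC1 libraries, 28.5, 47.2 and 61.1 in Mcidas libraries, and 17.2, 14.46 and 9.57 in GFP libraries. It was higher in both, by 1.45 ± 0.26 on the log2 scale in GemC1 cells (adjusted p = 0.00628) and 1.73 ± 0.26 in Mcidas cells (adjusted p = 0.00142). Mt3 (ENSMUSG00000031760, chr8:94152607-94154146), the growth-inhibitory metallothionein of brain, had 36.8, 41.2 and 26.9 CPM in GemC1 libraries, 15.0, 39.6 and 37.1 in Mcidas libraries, and 24.4, 17.3 and 20.1 in GFP libraries. All GemC1 libraries were above the GFP libraries, whereas Mcidas replicate 1 was below them all. Its differences of 0.76 ± 0.30 in GemC1 cells (adjusted p = 0.18) and 0.57 ± 0.30 in Mcidas cells (adjusted p = 0.502) were not called.

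The promoters of these genes are shown because Mt1 and Mt2 moved together and because the metal response element, which binds the zinc-sensing factor MTF1, is known from this cluster. The sequences are from RefSeq (GRCm38.p6), from 250 bases before to 50 after each annotated start, on the plus strand, 5′ to 3′, and capitals mark matches to the element's core, TGCACNC or TGCGCNC, on either strand. They cover chr8:94178839-94179138 for Mt1, chr8:94172368-94172667 for Mt2 and chr8:94152357-94152656 for Mt3. The starts are those of RefSeq, which for Mt1 and Mt2 are not the gene starts given above. The Mt2 window therefore ends at 94172667, just past the gene start at 94172664.
Mt1: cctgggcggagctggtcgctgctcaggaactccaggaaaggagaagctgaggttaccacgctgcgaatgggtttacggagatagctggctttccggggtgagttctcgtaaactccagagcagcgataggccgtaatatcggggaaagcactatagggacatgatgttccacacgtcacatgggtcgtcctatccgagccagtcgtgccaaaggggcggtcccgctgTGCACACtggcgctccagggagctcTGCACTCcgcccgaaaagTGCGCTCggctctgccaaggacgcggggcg
Mt2: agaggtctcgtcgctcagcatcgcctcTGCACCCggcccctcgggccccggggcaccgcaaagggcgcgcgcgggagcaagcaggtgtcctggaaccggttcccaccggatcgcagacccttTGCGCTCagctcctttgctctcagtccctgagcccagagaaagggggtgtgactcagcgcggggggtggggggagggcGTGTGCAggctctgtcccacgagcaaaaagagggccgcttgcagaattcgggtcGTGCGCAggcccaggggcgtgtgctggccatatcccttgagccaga
Mt3: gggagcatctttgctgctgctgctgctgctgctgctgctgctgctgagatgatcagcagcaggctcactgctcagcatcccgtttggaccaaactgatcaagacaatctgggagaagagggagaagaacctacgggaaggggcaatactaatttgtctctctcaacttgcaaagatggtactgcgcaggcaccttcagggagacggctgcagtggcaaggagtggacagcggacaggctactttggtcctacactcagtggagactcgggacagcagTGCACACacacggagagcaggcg
The core matched 3 times in the Mt1 window, 4 times in the Mt2 window and 1 time in the Mt3 window. Of 32851 promoter windows of the same length, 25.7% held at least 1 match, 1.97% at least 3 and 0.517% at least 4. Counted in bases from the RefSeq start, the matches began at -23, 2 and 20 in Mt1, at -223, -128, -50 and 4 in Mt2, and at 27 in Mt3. Several therefore lie after the start and not before it. A match describes these letters and not a bound site.

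S100b, a calcium-binding protein grouped with the metallothioneins by role, was near the limit of detection, between 0.260 and 0.658 CPM in the 9 libraries. It was not called in either comparison with GFP cells (-0.26 ± 0.56, adjusted p = 0.855, in GemC1 cells; -0.40 ± 0.56, adjusted p = 0.866, in Mcidas cells).

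Of the 3 FGF receptor genes among the 39, Fgfr2 was higher with both proteins and Fgfr1 and Fgfr3 were not called. FGF receptors are tyrosine kinases through which FGF ligands act on radial glial proliferation and identity. Fgfr2 (ENSMUSG00000030849, minus strand, chr7:130162451-133123350) had 111, 97.1 and 101 CPM in GemC1 libraries, 102, 116 and 127 in Mcidas libraries, and 71.1, 71.5 and 56.02 in GFP libraries. The libraries with either protein lay above every GFP library, and the GemC1 and Mcidas libraries overlapped. The difference was 0.64 ± 0.11 (1.56-fold, adjusted p = 0.00556) in GemC1 cells and 0.79 ± 0.11 (1.73-fold, adjusted p = 0.000832) in Mcidas cells. It was called in all 17 alternative analyses of each comparison, with adjusted p of at most 0.0268 for GemC1 and 0.00566 for Mcidas. Its annotated span reaches into Ctbp2 on the same strand, with which it shares 314 bp of exon, 3.04% of its exon length. Ctbp2 itself differed by 0.10 ± 0.09 in GemC1 cells (adjusted p = 0.597) and 0.12 ± 0.09 in Mcidas cells (adjusted p = 0.71).

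Fgfr1 averaged 83.8 ± 2.86 CPM in GemC1 cells, 84.8 ± 5.71 in Mcidas cells and 90.0 ± 6.77 in GFP cells (SD, n = 3 each). Its difference was -0.10 ± 0.09 in GemC1 cells (adjusted p = 0.564) and -0.09 ± 0.09 in Mcidas cells (adjusted p = 0.79). Fgfr3, a receptor typical of ventricular zone and astrocytes, averaged 73.6 ± 4.27 CPM in GemC1 cells, 66.8 ± 6.84 in Mcidas cells and 64.0 ± 11.8 in GFP cells, with differences of 0.20 ± 0.13 in GemC1 cells (adjusted p = 0.426) and 0.06 ± 0.13 in Mcidas cells (adjusted p = 0.914). The annotation places an antisense transcript over 13.9% of its exons, and the sources used here do not give the strand setting of the counting. Fgfr4 was low, at a mean of 1.41 CPM in GemC1 cells, 0.9999 in Mcidas cells and 1.02 in GFP cells, and was not called. Of 20 other genes of FGF signalling, 0 were higher and 1 was lower in GemC1 cells, with a median of -0.13. That gene was Flrt3, a membrane protein that binds FGF receptors (-1.07 ± 0.25, adjusted p = 0.0308). In Mcidas cells 0 of the 20 were called (median -0.09). Among all tested genes, 3.86% were called higher and 1.32% lower in GemC1 cells, and 4.03% and 0.327% in Mcidas cells.

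The genes of lipid handling and metabolism were the role with the most calls in GemC1 cells. Of 7 genes, 3 (42.9%) were higher (Apoe, Dbi and Aldoc), where 3.86% of all tested genes were called higher. The share was 33.3% in each of 2 smaller roles, FGF receptors and metal and calcium binding, with 1 of 3 genes called. All 7 lipid and metabolism genes had log2 fold changes above 0, with a median of 0.52. In Mcidas cells 0 of the 7 were called and the median was 0.06. Set against Mcidas cells, GemC1 cells were again above in all 7, with a median of 0.54 and no call.

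Apoe, the apolipoprotein that astroglia and microglia secrete to carry lipid (ENSMUSG00000002985, chr7:19696109-19699188), had 58.5, 58.9 and 62.3 CPM in GemC1 libraries, 27.8, 47.3 and 44.7 in Mcidas libraries, and 36.2, 31.7 and 22.01 in GFP libraries. The GemC1 libraries were tightly grouped above every other library, and the Mcidas and GFP libraries overlapped. The difference was 1.0 ± 0.20 in GemC1 cells (2.00-fold, adjusted p = 0.0116) and 0.41 ± 0.20 in Mcidas cells (adjusted p = 0.437), and between GemC1 and Mcidas cells it was 0.59 ± 0.20 (adjusted p = 0.247). Without GFP replicate 3 the first was 0.82 with an adjusted p of 0.0522.

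Markers of microglia moved in the same direction as Apoe. Of 24 microglial and macrophage genes, 22 were tested, and 12 (54.5%) were higher in GemC1 cells and 2 (9.09%) in Mcidas cells. Over all tested genes, 3.86% and 4.03% were called higher. All 22 had log2 fold changes above 0 in GemC1 cells (median 2.20), and 21 of 22 did in Mcidas cells (median 1.26). The summed level of the 24 genes was 90.6 to 137 CPM in GemC1 libraries, 55.9 to 82.7 in Mcidas libraries and 35.0 to 52.2 in GFP libraries. None of the 24 was at 0 in all 3 libraries of a group. C1qb, a complement subunit made by microglia, had 5.99, 3.45 and 4.47 CPM in GemC1 libraries, 1.90, 4.20 and 3.64 in Mcidas libraries, and 0.9995, 0.638 and 0.660 in GFP libraries. Its difference was 2.6 ± 0.37 in GemC1 cells (adjusted p = 0.00101) and 2.08 ± 0.37 in Mcidas cells (adjusted p = 0.00422). P2ry12, Itgam and Lyz2 were higher in GemC1 cells by 2.88 ± 0.47, 4.58 ± 0.81 and 3.21 ± 0.59, with adjusted p of 0.00277, 0.00525 and 0.00692. The cells were sorted as GFP+, and whether the microglial transcripts came from GFP+ cells was not tested. The part of microglia in the Apoe level, or in that of any other of the 39 genes that microglia also transcribe, was not tested.

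Aldoc, the aldolase isoform of astroglia (ENSMUSG00000017390, chr11:78322968-78327781), had 106, 133 and 108 CPM in GemC1 libraries, 61.9, 72.7 and 77.6 in Mcidas libraries, and 82.5, 84.99 and 71.8 in GFP libraries. GemC1 libraries were above all others, and the Mcidas and GFP libraries overlapped. The difference from GFP cells was 0.53 ± 0.12 in GemC1 cells (adjusted p = 0.0183) and -0.17 ± 0.12 in Mcidas cells (adjusted p = 0.632). Between GemC1 and Mcidas cells it was 0.71 ± 0.12 (unadjusted p = 4.67e-05, adjusted p = 0.0703). Dbi (ENSMUSG00000026385, chr1:120113280-120121078) had 277, 304 and 233 CPM in GemC1 libraries, 183, 208 and 208 in Mcidas libraries, and 208, 192.5 and 161 in GFP libraries. Each GemC1 library was above each of the other 6. Its difference was 0.53 ± 0.11 in GemC1 cells (adjusted p = 0.018), 0.09 ± 0.11 in Mcidas cells (adjusted p = 0.846) and 0.44 ± 0.11 between GemC1 and Mcidas cells (adjusted p = 0.173).

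The other metabolic genes were not called. Fabp7 had 511, 696 and 527 CPM in GemC1 libraries, 315, 466 and 415 in Mcidas libraries, and 450.3, 428 and 329 in GFP libraries. GemC1 libraries were above the rest, but replicate 2 stood well over the other two. The difference was 0.52 ± 0.16 in GemC1 cells (adjusted p = 0.0877) and -0.01 ± 0.16 in Mcidas cells (adjusted p = 0.987). Aldh1l1, a folate enzyme widely used as an astrocyte marker, averaged 63.7 ± 5.14 CPM in GemC1 cells, 43.5 ± 10.9 in Mcidas cells and 56.1 ± 7.83 in GFP cells (SD, n = 3 each). It differed by 0.18 ± 0.16 (adjusted p = 0.591) in GemC1 cells and -0.37 ± 0.16 (adjusted p = 0.362) in Mcidas cells, and an antisense transcript covers 11% of its exons. Ddah1, which breaks down methylated arginine, differed by 0.36 ± 0.13 in GemC1 cells (adjusted p = 0.147), with no overlap of the libraries, and by 0.11 ± 0.13 in Mcidas cells. Clu, the secreted chaperone clusterin, differed by 0.34 ± 0.20 in GemC1 cells and 0.06 ± 0.20 in Mcidas cells and ranged from 12.1 to 20.8 CPM over the 9 libraries.

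**Figure D3:**
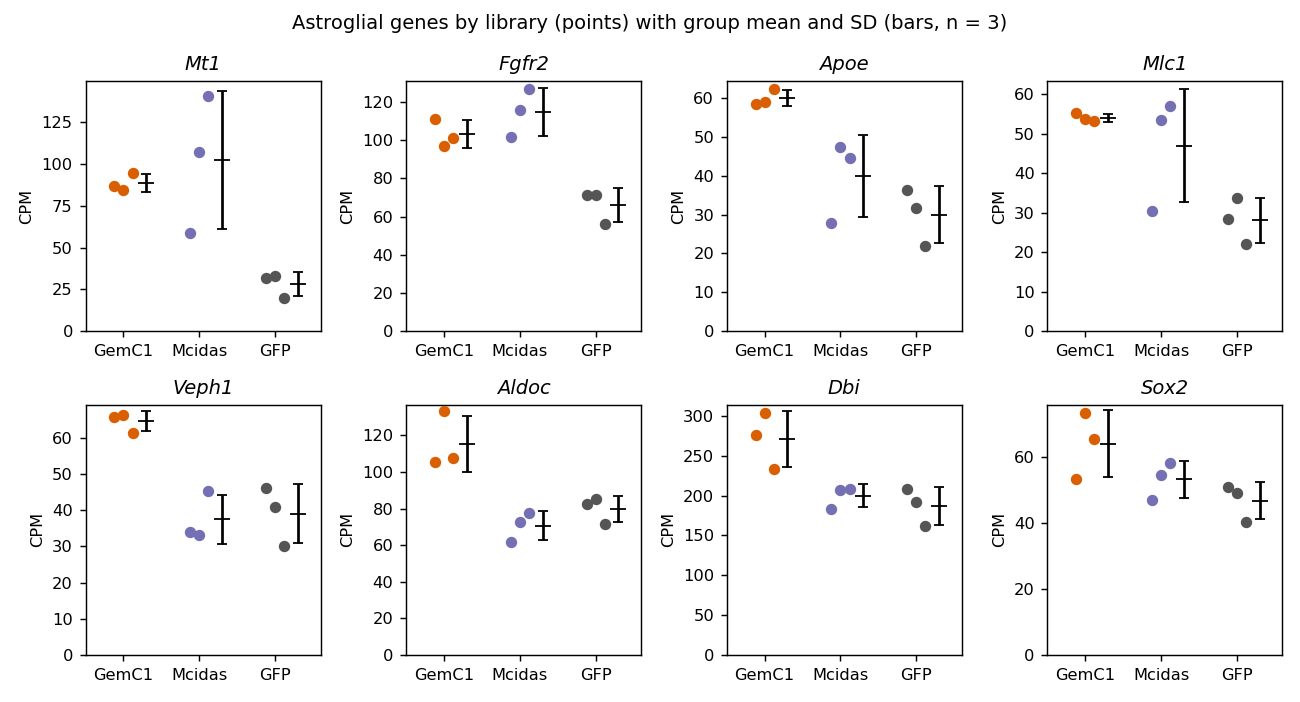
CPM of astroglial genes in each library (points), with the group mean and SD (bars, n = 3), for GemC1, Mcidas and GFP cells. Mt1 and Fgfr2 are above GFP in both other groups, whereas Apoe, Veph1, Aldoc and Dbi are above all other libraries in GemC1 cells only.

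Of the channel, junction and transport genes, 1 of 4 (25%) was higher in GemC1 cells and 0 in Mcidas cells. Among all tested genes, 3.86% and 4.03% were called higher. Mlc1, a membrane protein of astroglial endfeet whose human counterpart is mutated in a leukodystrophy with megalencephaly (ENSMUSG00000035805, chr15:88955884-88979007), had 55.2, 53.7 and 53.1 CPM in GemC1 libraries, 30.5, 53.4 and 56.9 in Mcidas libraries, and 28.3, 33.6 and 22.1 in GFP libraries. Mcidas replicate 1 lay among the GFP libraries and the other Mcidas libraries at the GemC1 level. The difference was 0.95 ± 0.21 in GemC1 cells (adjusted p = 0.0187) and 0.74 ± 0.21 in Mcidas cells (adjusted p = 0.0701). The GemC1 call was missed in 6 of the 17 alternatives, with adjusted p of up to 0.1.

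Aqp4, the water channel of ependyma and of astrocyte endfeet, was low, at 4.87, 4.40 and 4.47 CPM in GemC1 libraries, 3.54, 2.80 and 2.81 in Mcidas libraries, and 2.88, 2.53 and 2.61 in GFP libraries. The GemC1 libraries were above all others, and its difference of 0.78 ± 0.22 missed the threshold (adjusted p = 0.0691). In Mcidas cells it was 0.19 ± 0.23 (adjusted p = 0.829). Gja1, the gap junction protein connexin 43, differed by 0.37 ± 0.28 in GemC1 cells and 0.45 ± 0.28 in Mcidas cells, and the bicarbonate cotransporter gene Slc4a4 by -0.01 ± 0.38 in GemC1 cells and -0.03 ± 0.38 in Mcidas cells. Both genes spread widely within the Mcidas libraries, Gja1 from 8.26 to 19.8 CPM and Slc4a4 from 7.40 to 20.3 CPM.

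Among filament, matrix and surface genes, 1 of 7 (14.3%) was higher in GemC1 cells and 0 in Mcidas cells, where 3.86% and 4.03% of all tested genes were. Veph1, named for its expression in the ventricular zone (ENSMUSG00000027831, chr3:66053558-66296837), had 65.9, 66.3 and 61.4 CPM in GemC1 libraries, 34.0, 33.2 and 45.3 in Mcidas libraries, and 46.1, 40.9 and 30.0 in GFP libraries. GemC1 libraries stood apart and the other 6 were mixed. The difference was 0.73 ± 0.16 in GemC1 cells (adjusted p = 0.0177), -0.06 ± 0.16 in Mcidas cells (adjusted p = 0.937) and 0.79 ± 0.16 between GemC1 and Mcidas cells (adjusted p = 0.118). The first was missed in 4 of the 17 alternatives.

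Vim, the vimentin filament of radial glia, had 221, 186 and 216 CPM in GemC1 libraries, 142, 186 and 203 in Mcidas libraries, and 162, 158 and 130.4 in GFP libraries. No GemC1 library overlapped the GFP libraries, and the difference of 0.47 ± 0.13 missed the threshold (adjusted p = 0.0601), though it passed in 5 of the 17 alternatives. In Mcidas cells it was 0.24 ± 0.13 (adjusted p = 0.528). Nes, the progenitor filament nestin, averaged 75.9 ± 6.06 CPM in GemC1 cells, 77.6 ± 11.2 in Mcidas cells and 80.3 ± 16.4 in GFP cells, with differences of -0.08 ± 0.14 in GemC1 cells (adjusted p = 0.814) and -0.05 ± 0.14 in Mcidas cells (adjusted p = 0.941). Gfap had 0.705, 0.542 and 0.559 CPM in GemC1 libraries, 0.576, 0.274 and 0.650 in Mcidas libraries, and 0.970, 1.13 and 0.0600 in GFP libraries. GFP replicate 3 was below the level that 3 counts give, and the differences of -0.26 ± 0.74 in GemC1 cells (adjusted p = 0.889) and -0.54 ± 0.75 in Mcidas cells (adjusted p = 0.864) were smaller than their errors.

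Tnc, the matrix protein tenascin C, varied widely within groups, with 367, 306 and 446 CPM in GemC1 libraries, 200.4, 340.2 and 321 in Mcidas libraries, and 277, 335 and 174 in GFP libraries. Its lowest values were in Mcidas replicate 1 and GFP replicate 3, and the difference was 0.51 ± 0.25 in GemC1 cells (adjusted p = 0.287) and 0.13 ± 0.25 in Mcidas cells (adjusted p = 0.904). Ptprz1, a receptor phosphatase of radial glia, differed by 0.22 ± 0.13 in GemC1 cells and 0.05 ± 0.13 in Mcidas cells. Prom1, the apical membrane protein prominin, differed by 0.19 ± 0.10 in GemC1 cells and 0.13 ± 0.10 in Mcidas cells. Neither was called.

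No gene of glutamate uptake was called. Slc1a3, which encodes the radial glial transporter GLAST, had 256, 232 and 235 CPM in GemC1 libraries, 177, 231 and 202 in Mcidas libraries, and 198, 212 and 163 in GFP libraries. GemC1 libraries were above all others, though GemC1 replicate 2 exceeded Mcidas replicate 2 by less than 1 CPM, and the difference from GFP cells was 0.34 ± 0.11 (adjusted p = 0.116). In Mcidas cells it was 0.09 ± 0.11 (adjusted p = 0.836). Slc1a2, the transporter GLT-1 of maturing astrocytes, was lower in level, at 11.1 ± 1.40 CPM in GemC1 cells, 10.7 ± 0.574 in Mcidas cells and 10.2 ± 3.67 in GFP cells. Glul, glutamine synthetase, averaged 32.2 ± 6.30 CPM in GemC1 cells, 26.2 ± 1.71 in Mcidas cells and 30.6 ± 2.31 in GFP cells. Every Mcidas library was below every GFP library, by a difference of -0.23 ± 0.14 (adjusted p = 0.587).

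The transcription factors of radial glia showed no called change in any comparison. Of 9 genes, 0 were called in GemC1 cells (median 0.00) and 0 in Mcidas cells (median -0.05). Among all tested genes, 3.86% were called higher and 1.32% lower in GemC1 cells, and 4.03% and 0.327% in Mcidas cells. With an unadjusted p under 0.05, 1 was higher (Sox2) and 1 lower (Nfib) in GemC1 cells. In Mcidas cells 1 was higher (Sox9). The share of all tested genes under this cut was not counted. Sox2, which keeps neural stem cells undifferentiated, had 53.4, 73.5 and 65.6 CPM in GemC1 libraries, 47.1, 54.5 and 58.2 in Mcidas libraries, and 51.1, 49.0 and 40.4 in GFP libraries. Its difference was 0.45 ± 0.13 in GemC1 cells (adjusted p = 0.0734), which passed in 3 of the 17 alternatives, and 0.18 ± 0.13 in Mcidas cells (adjusted p = 0.672). Pax6, the cortical progenitor factor, had 66.8, 98.9 and 84.8 CPM in GemC1 libraries, 81.1, 67.3 and 78.2 in Mcidas libraries, and 71.7, 75.9 and 62.1 in GFP libraries. These groups overlapped, with differences of 0.26 ± 0.14 in GemC1 cells (adjusted p = 0.323) and 0.11 ± 0.14 in Mcidas cells (adjusted p = 0.838).

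Sox9, which precedes gliogenesis, had 102, 95.9 and 143 CPM in GemC1 libraries, 111, 121 and 123 in Mcidas libraries, and 88.1, 104 and 93.7 in GFP libraries. All Mcidas libraries were above the GFP libraries, and the difference was 0.31 ± 0.13 (adjusted p = 0.335), beside 0.26 ± 0.13 in GemC1 cells (adjusted p = 0.31). Of the nuclear factor I genes, Nfia had 217, 219 and 248 CPM in GemC1 libraries, 209, 224 and 203 in Mcidas libraries, and 209, 221 and 251 in GFP libraries. The 3 groups overlapped, and GemC1 and GFP cells differed by 0.00 ± 0.09 (adjusted p = 0.985). Nfib was below every GFP library in each GemC1 library, at 1626, 1576 and 1517 CPM in GemC1 libraries against 1710, 1822 and 2008 in GFP libraries, a difference of -0.23 ± 0.08 that was not called (adjusted p = 0.148). Nfix differed by -0.13 ± 0.12 in GemC1 cells and -0.05 ± 0.12 in Mcidas cells. Nfic, the fourth gene of the family and not one of the 39, differed by 0.43 ± 0.12 in GemC1 cells (adjusted p = 0.0539) and 0.35 ± 0.12 in Mcidas cells (adjusted p = 0.153).

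Lhx2, a factor of cortical progenitor identity, had close means, at 346 ± 23.5 CPM in GemC1 cells, 341 ± 10.3 in Mcidas cells and 359 ± 40.0 in GFP cells, with differences of -0.06 ± 0.09 in GemC1 cells and -0.07 ± 0.09 in Mcidas cells. Emx2, a dorsal forebrain factor, averaged 20.5 ± 3.04 CPM in GemC1 cells, 17.2 ± 1.92 in Mcidas cells and 20.7 ± 1.64 in GFP cells. Each Mcidas library was below each GFP library, and the difference was -0.27 ± 0.15 (adjusted p = 0.526). Its relative Emx1 differed by -0.14 ± 0.11 in GemC1 cells and -0.11 ± 0.11 in Mcidas cells. Hopx, a small homeodomain protein of outer radial glia and quiescent stem cells, was at 2.02 to 5.76 CPM over the 9 libraries, with 27.2% of its exons under an antisense transcript, and was not called. Sox1 and Sox3, the relatives of Sox2, differed by 0.18 ± 0.16 and 0.60 ± 0.19 in GemC1 cells (adjusted p = 0.605 and 0.102) and by 0.04 ± 0.16 and 0.49 ± 0.20 in Mcidas cells (adjusted p = 0.957 and 0.283).

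The Id genes, whose proteins block basic helix-loop-helix factors downstream of BMP signalling, were not called either. Id1 had 26.6, 27.3 and 36.2 CPM in GemC1 libraries, 8.18, 21.0 and 15.1 in Mcidas libraries, and 33.4, 29.0 and 15.6 in GFP libraries. Every GemC1 library was above every Mcidas library, a difference of 1.03 ± 0.32 (adjusted p = 0.225), whereas the GFP libraries spanned both. Against GFP cells Id1 differed by 0.21 ± 0.32 in GemC1 cells (adjusted p = 0.78) and -0.82 ± 0.32 in Mcidas cells (adjusted p = 0.285). Id3 had 9.80, 5.32 and 10.3 CPM in GemC1 libraries, 3.66, 10.7 and 11.8 in Mcidas libraries, and 10.4, 11.5 and 4.35 in GFP libraries, and the groups overlapped throughout. Id4 averaged 82.4 ± 3.6 CPM in GemC1 cells, 91.2 ± 9.97 in Mcidas cells and 76.3 ± 5.79 in GFP cells, with differences of 0.11 ± 0.10 in GemC1 cells (adjusted p = 0.586) and 0.26 ± 0.10 in Mcidas cells (adjusted p = 0.245). Id2, not one of the 39, was the most abundant, at 369 ± 30.1 CPM in GemC1 cells, 344 ± 68.8 in Mcidas cells and 413 ± 29.8 in GFP cells. Of 14 tested genes of BMP signalling, 0 were higher and 1 was lower in GemC1 cells, the receptor gene Bmpr2 (-0.64 ± 0.16, adjusted p = 0.0358). In Mcidas cells 0 were called. Among all tested genes, 3.86% were called higher and 1.32% lower in GemC1 cells, and 4.03% and 0.327% in Mcidas cells. Log2 fold changes were below 0 for 12 of the 14 in GemC1 cells (median -0.19) and 11 in Mcidas cells (median -0.21).

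Other genes of the same cell types, outside the 39, were counted in the same way. Of all tested genes, 3.86% were called higher and 1.32% lower in GemC1 cells, and 4.03% and 0.327% in Mcidas cells. Of 29 tested radial glial genes, 4 (13.8%) were higher and 0 lower in GemC1 cells, with a median of 0.21. They were Pdpn, which encodes the membrane glycoprotein podoplanin (0.94 ± 0.18, adjusted p = 0.00881), Mfge8, a secreted lactadherin (0.65 ± 0.14, adjusted p = 0.0194), the proteoglycan gene Cspg5 (0.67 ± 0.16, adjusted p = 0.0338) and Ttyh1, an anion channel family gene (0.36 ± 0.09, adjusted p = 0.0409). In Mcidas cells 0 were higher and 1 was lower, the Notch target Hes5 (-0.59 ± 0.14, adjusted p = 0.0337), with a median of 0.10. Of 20 tested astrocyte genes, 2 (10%) were higher and 0 lower in GemC1 cells, with a median of 0.47. They were the lipid phosphatase gene Plpp3 (0.45 ± 0.09, adjusted p = 0.0146) and the sphingosine phosphate receptor gene S1pr1 (0.56 ± 0.12, adjusted p = 0.0221). In Mcidas cells 0 of the 20 were called, with a median of 0.01. Of 18 tested relatives of the 39 genes, Mt2 was the 1 called in each comparison with GFP cells.

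Neuronal transcripts moved the other way in GemC1 cells. The summed level of 16 genes of immature neurons was 4930.5 to 5375 CPM in GemC1 libraries, 5181 to 6006 in Mcidas libraries and 5946 to 6948 in GFP libraries. In GemC1 cells 15 of the 16 had log2 fold changes below 0. Dcx, a microtubule protein of migrating neurons, was lower in GemC1 cells (-0.37 ± 0.08, adjusted p = 0.0233), and in Mcidas cells 0 of the 16 were called. Genes of intermediate progenitors were divided. Of 8, 4 had log2 fold changes above 0 and 4 below in GemC1 cells, with a median of -0.01. The 1 called gene among them was the proneural factor gene Neurog2, which was lower in GemC1 cells (-0.52 ± 0.11, adjusted p = 0.02). The part of a changed share of neurons in the levels of the 39 genes was not tested.

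Genes of multiciliated cells, the cell type that both proteins are known to drive, were higher in both groups, 12 of 12 in each. Foxj1, the master factor of motile cilia, had 121, 99.6 and 140 CPM in GemC1 libraries, 95.8, 170.2 and 183 in Mcidas libraries, and 1.06, 1.52 and 0.510 in GFP libraries. Endothelial markers summed to 2.96 to 4.16 CPM in GemC1 libraries, 3.40 to 7.79 in Mcidas libraries and 3.09 to 4.59 in GFP libraries, with 0 of 7 tested called, and meningeal markers summed to at most 6.91 CPM in any library. Pericyte and erythroid markers had 0 calls. Genes of oligodendrocyte precursors summed to 231 to 311 CPM in GemC1 libraries, 200.2 to 373 in Mcidas libraries and 178 to 271 in GFP libraries. Of these, 1 of 8 (12.5%) was higher in each group (C1ql1), and among choroid plexus genes 1 of 4 tested (25%, Clic6). Over all tested genes, 3.86% were called higher in GemC1 cells and 4.03% in Mcidas cells. In GemC1 cells, 4 oligodendrocyte precursor genes had log2 fold changes above 0 and 4 below, and in Mcidas cells 6 and 2. Of the tested choroid plexus genes, 2 were above 0 and 2 below in GemC1 cells, and 4 above in Mcidas cells.

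**Figure D4:**
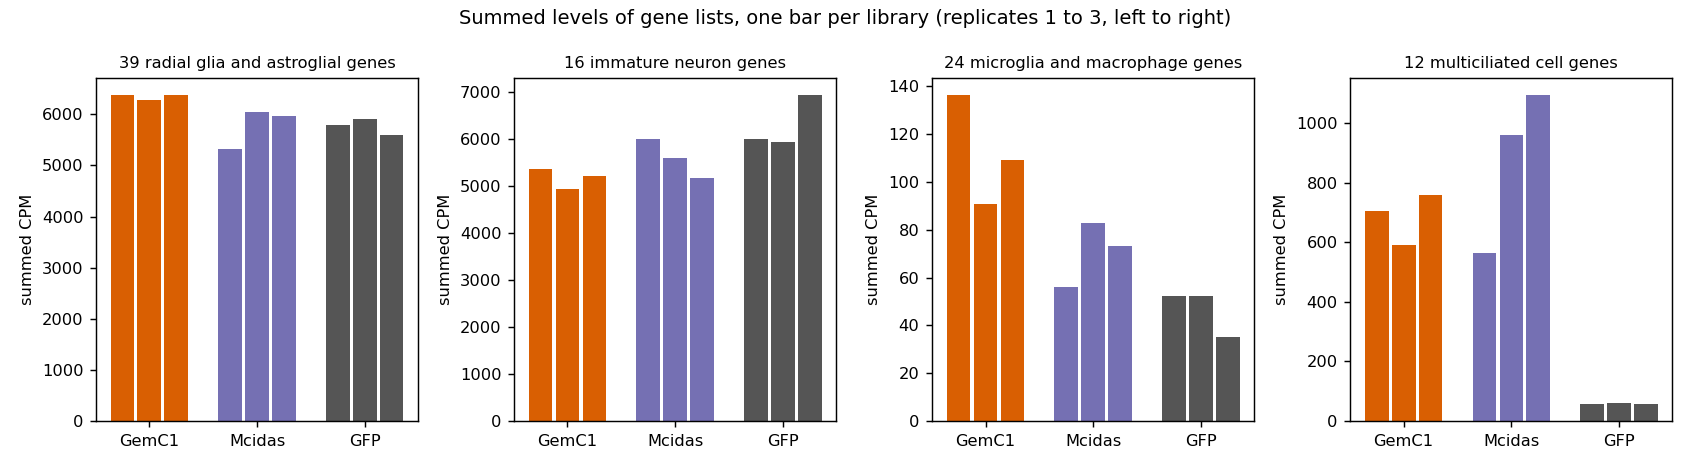
Summed CPM of gene lists, 1 bar for each library (replicates 1 to 3 from left to right) in GemC1, Mcidas and GFP cells. The microglial sum is 90.6 to 137 in GemC1, 55.9 to 82.7 in Mcidas and 35.0 to 52.2 in GFP libraries, while the neuronal sum is lower in each GemC1 library than in each GFP library.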

How the data were processed

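RNA was amplified with SMART-Seq v4, made into Nextera XT libraries and read at 75 bp, per the labels' protocols. The deposited files hold whole-number counts of reads per Ensembl gene, 1 file for each library, as the authors made them. Per the submitters' processing notes, the tools included HTSeq 0.5.3, DESeq2 1.8.1 and STAR 2.5.2b, with the genome build mm10, without role or order. The sources used here give neither the annotation release nor the strand setting. Total counts were 28515241, 28550907 and 30288663 in GemC1 libraries, 34860313, 32157318 and 22914704 in Mcidas libraries, and 34417359, 41163917 and 34756650 in GFP libraries, so 3 counts equal 0.0737 to 0.13 CPM. PCR copies were not separable from molecules.

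Symbols, positions and exon lengths came from GENCODE M21 (GRCm38), which matched 53274 of 53379 identifiers. Genes were kept by edgeR's filterByExpr (minimum count 10, total 15) and scaled by TMM (factors 0.9601 to 1.035). The quasi-likelihood test (edgeR 4.0.16, R 4.3.3) was fitted over all 9 libraries with group as its only term, and was tested on simulated data. A pseudocount of 0.5 CPM was used for the libraries' median levels. Alternatives were DESeq2 1.42.0, its size factors, other filters, a replicate block, fits of 2 groups, removal of mitochondrial, globin and plasmid-encoded gene counts, each library left out in turn, and, chosen after seeing the data, GFP replicate 3 and Mcidas replicate 1 left out together.

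The 39 genes, the lists and the tests were chosen with earlier results of these data known. All 39 are reported; outside them, at most 4 called genes a list with the smallest adjusted p and direct relatives are named, with Tubb3, Foxj1 and Ctbp2 chosen after their values were seen. Libraries with the same replicate number did not deviate together (correlations from -0.0744 to 0.0465), so the numbers were not treated as pairs. No libraries were copies of each other. The result of 1 gene outside the 39 is not reported here.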

Additional observations from a re-analysis of the deposited data

How the results depend on the processing

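Of the 39 genes, 0 were lower in each comparison and under each of the 17 alternatives, and no fold change of a called gene turned round. The count of higher genes in GemC1 against GFP cells, 7, became 11 with DESeq2 and ranged from 2 to 10 with 1 library left out. In Mcidas against GFP cells the count of 2 became 3 with DESeq2, 1 with no low-count filter and 4 with GFP replicate 3 and Mcidas replicate 1 both left out, and was 2 to 4 with 1 library left out. In GemC1 against Mcidas cells the count of 0 became 5 with DESeq2 and 3 with no low-count filter. With the replicate number as a block the counts of members stayed at 7, 2 and 0, and of all genes the block gave 147 lower in GemC1 against GFP cells and 3 lower in GemC1 against Mcidas cells. Of all genes, the 756 higher in GemC1 against GFP cells became 1159 with DESeq2 and 443 to 877 with 1 library left out. The 259 lower became 658 with DESeq2, 557 with no filter, 37 without both doubted libraries, and 32 to 267 with 1 left out. In Mcidas against GFP cells the 64 lower became 112 with DESeq2, 123 with no filter, and 29 to 99 with 1 left out. In GemC1 against Mcidas cells the 3 higher and 7 lower became 195 and 304 with DESeq2, 66 and 129 with no filter, and 8 and 20 without both doubted libraries. With 1 left out they were 3 to 5 and 1 to 8. The lower count there was 2 with only the 2 groups fitted and 3 without mitochondrial, globin and plasmid-encoded gene counts. The cause of these shifts was not tested. In GemC1 against GFP cells the call was missed in 0 of 17 alternatives for Fgfr2, 1 each for Mt1 and Apoe, 3 for Aldoc, 4 for Veph1, 5 for Dbi and 6 for Mlc1. Depth limits Gfap and S100b, which lie closest to the level of 3 counts.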
